A study of Homo sapiens with 6 samples.

Results

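Transcripts of the MHC class I presentation pathway and of the checkpoint ligand PD-L1 were followed in RKO cells, a human line from a colorectal carcinoma. The set was given as 9 gene symbols and matched to the deposited table through the gene identifiers of the annotation. It held the heavy chain genes HLA-B and HLA-C, the light chain gene B2M, the peptide transporter genes TAP1 and TAP2, the tapasin gene TAPBP, the immunoproteasome gene PSMB9, the transcriptional regulator gene NLRC5 and the PD-L1 gene CD274. All 9 were found among 58735 rows, and all 9 were among the 13503 genes with enough counts to be tested. Cells were treated with EZA (3 replicates) or with DMSO, the solvent control (3 replicates), and polyadenylated RNA was sequenced without strand information. What EZA stands for, at what dose it was given and for how long is not stated in the labels. The replicates are described as biological, with nothing more on separate cultures, so p-values measure only the spread between these samples.

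MHC class I molecules show peptides from inside the cell to CD8 T cells. Proteasomes cut proteins into peptides, TAP1 and TAP2 pump the peptides into the endoplasmic reticulum, and tapasin helps to load them onto a heavy chain paired with beta-2 microglobulin. NLRC5 switches on many of these genes through a shared promoter element, interferon signalling raises them further, and the same signalling induces PD-L1, which restrains T cells through the receptor PD-1.

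Libraries held 14070611 to 18840954 counts in EZA and 15343614 to 15778418 in DMSO. EZA replicate 3 stood apart: mitochondrial genes took 0.203% of its counts, against 3.68% and 4.29% in the other EZA libraries and 4.45% to 5.02% in DMSO. Fold changes also followed GC content over the whole table. Of 10 epithelial markers, EPCAM, KRT8, KRT18 and CDX2 were tested, CDH1, CDH17 and CDX1 had no counts in any library, and KRT19, KRT20 and VIL1 had at most 30 counts in all. Their summed level was 164 to 189 CPM (counts scaled to a common library total) in EZA and 166 to 185 in DMSO. Of 11 immune cell markers, 8 had no counts, including PTPRC, and the sum was 0 to 2.37 CPM in EZA and 0.912 to 1.61 in DMSO. Of 8 stromal markers 4 had no counts, and the sum was 0 to 1.07 CPM in EZA and 0.196 to 0.323 in DMSO.

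Promoter windows show how far the genes share control elements at the level of letters. They are given here for the 2 heavy chain genes, for TAP1 and for CD274, the 4 genes whose EZA and DMSO values did not overlap. Each window runs from 250 bases before to 50 bases after the RefSeq gene start on GRCh38.p14, 5′ to 3′ on the strand of the gene. Capitals mark matches, on either strand, to the interferon regulatory factor motif GAAANNGAA, the STAT motif TTCNNNGAA, the Y box CCAAT and the core TGACG of the cyclic AMP response element. The windows lie at chr6:31272043-31272342 (minus strand) for HLA-C, chr6:31357130-31357429 (minus strand) for HLA-B, chr6:32853655-32853954 (minus strand) for TAP1 and chr9:5450292-5450591 (plus strand) for CD274.
HLA-C: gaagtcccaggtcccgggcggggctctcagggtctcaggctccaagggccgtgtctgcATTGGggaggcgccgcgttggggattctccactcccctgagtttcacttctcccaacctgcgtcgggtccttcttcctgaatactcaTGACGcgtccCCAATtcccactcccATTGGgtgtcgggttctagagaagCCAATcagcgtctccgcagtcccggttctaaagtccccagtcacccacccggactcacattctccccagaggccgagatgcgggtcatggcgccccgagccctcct
HLA-B: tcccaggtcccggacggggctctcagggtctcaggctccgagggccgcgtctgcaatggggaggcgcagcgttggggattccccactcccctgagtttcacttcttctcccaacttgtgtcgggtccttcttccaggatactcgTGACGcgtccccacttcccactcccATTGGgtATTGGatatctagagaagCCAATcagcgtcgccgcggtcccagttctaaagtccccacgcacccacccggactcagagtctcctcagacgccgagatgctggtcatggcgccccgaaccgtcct
TAP1: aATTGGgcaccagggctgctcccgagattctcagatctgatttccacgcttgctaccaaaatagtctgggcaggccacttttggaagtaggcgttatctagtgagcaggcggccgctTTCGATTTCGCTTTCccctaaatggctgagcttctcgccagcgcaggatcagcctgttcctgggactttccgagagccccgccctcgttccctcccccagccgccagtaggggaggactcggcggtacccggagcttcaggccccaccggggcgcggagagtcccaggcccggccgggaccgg
CD274: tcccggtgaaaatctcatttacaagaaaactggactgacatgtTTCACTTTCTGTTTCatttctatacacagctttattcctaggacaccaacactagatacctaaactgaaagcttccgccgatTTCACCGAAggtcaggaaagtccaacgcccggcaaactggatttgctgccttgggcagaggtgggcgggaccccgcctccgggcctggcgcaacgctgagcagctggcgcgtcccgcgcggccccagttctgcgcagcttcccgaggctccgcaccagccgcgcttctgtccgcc

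The HLA-C and HLA-B windows were 88.5% identical, at 269 of 304 aligned columns. Both held a TGACG match, starting 105 bases before the gene start in HLA-C and 106 bases before it in HLA-B, and both held CCAAT matches on both strands, with one at -56 in each. No match to the interferon regulatory factor motif as written was present in either. The TAP1 window held 2 matches of that motif at -133 and -127, which overlap, and a CCAAT match at its far end. The second TAP1 window of the table, at chr6:32852712-32853011, held the STAT motif at -189 and no match to the interferon regulatory factor motif. The CD274 window held 2 overlapping matches of the same motif at -207 and -201 and the STAT motif at -125. Matches to the interferon regulatory factor motif were also present in the windows of B2M, TAP2 and TAPBP, none of which passed the test. Of 35116 promoter windows of the same length, 8.11% held the interferon regulatory factor motif, 7.66% the STAT motif, 34.6% the Y box and 24.6% the core TGACG. The whole cyclic AMP response element TGACGTCA was in 1.85% of windows and the amino acid response motif TGATGNAA in 3.62%, and neither was in a window of the 9 genes. Windows were found for 8 of the 9 genes, with 2 for TAP1, and none was found for NLRC5. These are matches of letters only.

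Across the 9 genes, HLA-C and TAP1 rose in EZA, and no gene fell at an adjusted p below 0.05. That is 2 genes of 9, both higher, where 17.7% of all genes tested were called, 9.89% higher and 7.82% lower. At an unadjusted p below 0.05, HLA-B joined the higher genes and CD274 was lower, against 18% and 16.6% of all genes. The same 4 genes were those whose 3 EZA values did not overlap the 3 DMSO values, 3 higher and 1 lower. Over all genes tested, 42.7% were separated in this way, 21% upward and 21.7% downward. The median log2 fold change, EZA over DMSO, was 0.19 for the 9 genes and -0.01 for all genes. None of the 9 passed the threshold the study states, a log2 fold change of 1 or more in either direction with an unadjusted p below 0.05. Of all genes, 5.73% passed it, 3.77% higher and 1.96% lower. In DESeq2, 0 of the 9 passed it as well. At an adjusted p below 0.05 in DESeq2, CD274 was lower beside the higher HLA-C and TAP1 (12.8% of all genes higher, 10.1% lower). When 1 library was left out, 0 of the 9 were called without EZA replicate 1 or 2 (11.4% and 10.6% of all genes called in either direction) or without DMSO replicate 1, 2 or 3 (1.6%, 5.71% and 1.84%), and 4 were called without EZA replicate 3 (38.4%).

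**Figure D1:**
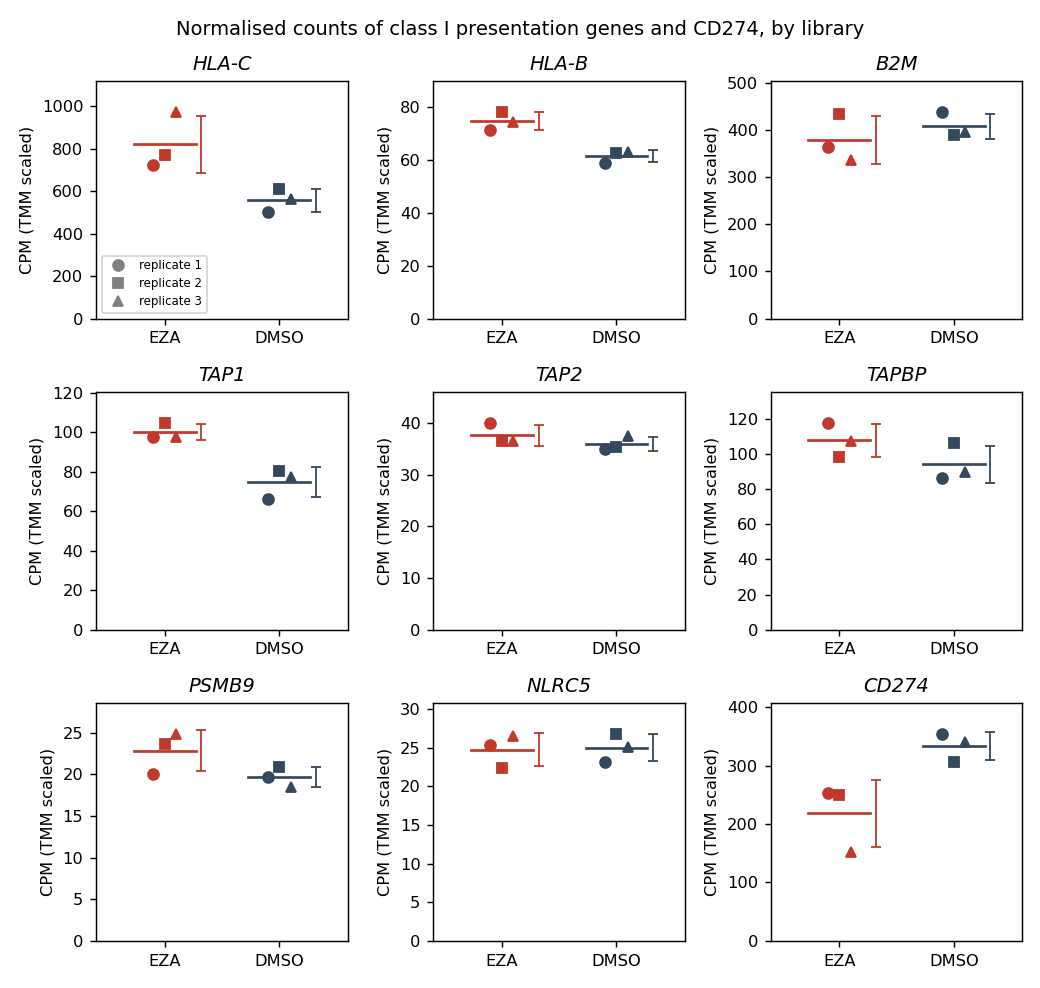
Each panel shows 1 gene, with CPM after TMM scaling on a vertical axis that starts at 0 and EZA left of DMSO. Symbols are replicates, lines are means and bars are 1 SD (n = 3 each); the groups are apart for HLA-C, HLA-B and TAP1, with EZA higher, and for CD274, with EZA lower.

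HLA-C (chr6:31268749-31272130, minus strand), a classical heavy chain gene, had 721, 769 and 972 CPM after TMM scaling in EZA replicates 1 to 3, against 499, 608 and 563 CPM in DMSO replicates 1 to 3. Every EZA value lay above every DMSO value, and EZA replicate 3 was the highest of the 6. The means were 820 ± 133 CPM in EZA and 557 ± 54.6 CPM in DMSO (SD, n = 3 each). HLA-C rose by 0.56 ± 0.16 on the log2 scale (SE; edgeR quasi-likelihood test, adjusted p = 0.0439), or by 0.42 without EZA replicate 3 (adjusted p = 0.00142). The call was lost without EZA replicate 1 (adjusted p = 0.0518), without EZA replicate 2 (0.0635) and without DMSO replicate 1, 2 or 3 (0.192, 0.0916 and 0.168), and with scaling by library size alone (0.0635). HLA genes resemble each other, and the handling of reads that map to more than one of them is not given: 5.46% of the 50-base stretches of HLA-C transcripts also occurred in transcripts of genes elsewhere, and 0.130% of its 100-base stretches. In these bulk libraries, more RNA per cell and a larger share of cells that carry it cannot be told apart.

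HLA-B (chr6:31353872-31367067, minus strand), the gene of another classical heavy chain, had 71.4, 78.1 and 74.5 CPM in EZA, against 58.9, 62.6 and 63.0 CPM in DMSO. The groups did not overlap, and the 3 EZA libraries were close to each other, including replicate 3. The means were 74.7 ± 3.36 CPM in EZA and 61.5 ± 2.25 CPM in DMSO (SD, n = 3 each), a log2 difference of 0.28 ± 0.12 (SE) that missed the threshold (edgeR, adjusted p = 0.122). The same difference of 0.28 passed without EZA replicate 3 (adjusted p = 0.0410). Of the 50-base stretches of HLA-B transcripts, 2.22% were shared with genes elsewhere. Exons of HLA-B overlap those of the pseudogene DHFRP2 over 1421 bases on the same strand. That gene had 1 count in all 6 libraries together, and how reads there were assigned is not stated.

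B2M (chr15:44711358-44718851, plus strand) encodes beta-2 microglobulin, the light chain that every class I heavy chain needs to reach the cell surface. It had 363, 434 and 336 CPM in EZA, against 438, 389 and 396 CPM in DMSO. The groups overlapped, with EZA replicate 2 second highest and EZA replicates 1 and 3 lowest of the 6. The log2 difference was -0.11 ± 0.14 (SE; edgeR, adjusted p = 0.615).

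TAP1 (chr6:32845209-32853816, minus strand), a subunit of the transporter associated with antigen processing, had 97.6, 104.6 and 97.5 CPM in EZA, against 65.9, 80.4 and 77.5 CPM in DMSO. All 3 EZA libraries lay above all 3 DMSO libraries, and DMSO replicate 1 was the lowest. TAP1 rose by 0.42 ± 0.13 on the log2 scale (SE; edgeR, adjusted p = 0.0495), close to the threshold, with means of 99.9 ± 4.06 CPM in EZA and 74.6 ± 7.66 CPM in DMSO (SD, n = 3 each). It was 0.44 without EZA replicate 3 (adjusted p = 0.00169). The call was lost without EZA replicate 1 (adjusted p = 0.0878), EZA replicate 2 (0.109) or DMSO replicate 1, 2 or 3 (0.202, 0.0852 and 0.171), and also with no filter on low counts (0.0667) or scaling by library size alone (0.0718). Exons of TAP1 overlap those of the antisense gene PSMB8-AS1 over 672 bases, and that gene had 39 counts in all 6 libraries together.

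TAP2 (chr6:32821833-32838739, minus strand), the partner subunit, had 39.9, 36.4 and 36.5 CPM in EZA, against 34.9, 35.4 and 37.4 CPM in DMSO. The groups overlapped, and the log2 difference was 0.07 ± 0.12 (SE; edgeR, adjusted p = 0.731). TAPBP (chr6:33299694-33314284, minus strand), which encodes tapasin, the bridge between the transporter and the heavy chain, had 117, 98.1 and 107 CPM in EZA, against 86.5, 106 and 89.8 CPM in DMSO. Its groups overlapped through DMSO replicate 2, which lay between EZA replicates 2 and 3. The log2 difference of TAPBP was 0.19 ± 0.13 (SE; edgeR, adjusted p = 0.344).

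PSMB9 (chr6:32844136-32859851, plus strand) encodes a catalytic subunit that replaces PSMB6 in the immunoproteasome, and its RefSeq gene start lies beside that of TAP1 on the opposite strand, with a promoter window at chr6:32853942-32854241. It had 20.1, 23.7 and 24.8 CPM in EZA, against 19.6, 20.9 and 18.5 CPM in DMSO. EZA replicates 2 and 3 lay above all DMSO libraries and EZA replicate 1 lay among them. The log2 difference was 0.21 ± 0.14 (SE; edgeR, adjusted p = 0.319). Exons of PSMB9 overlap 139 bases of PSMB8 on the opposite strand, a gene with more counts than PSMB9, and reads of the pair in that stretch cannot be told apart without strand.

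NLRC5 (chr16:56989485-57083531, plus strand), the class I transactivator, had 25.3, 22.4 and 26.6 CPM in EZA, against 23.2, 26.7 and 25.1 CPM in DMSO. The groups lay over each other. The log2 difference of NLRC5 was -0.02 ± 0.14 (SE; edgeR, adjusted p = 0.948).

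CD274 (chr9:5450503-5470566, plus strand), which encodes PD-L1, had 253, 250 and 152 CPM in EZA, against 354, 306 and 341 CPM in DMSO. All 3 EZA libraries lay below all 3 DMSO libraries, and EZA replicate 3 was far below the other EZA libraries. The log2 difference was -0.61 ± 0.20 (SE) and missed the threshold (edgeR, adjusted p = 0.0632), with means of 218 ± 57.7 CPM in EZA and 333 ± 24.6 CPM in DMSO (SD, n = 3 each). It was smaller without EZA replicate 3, at -0.40, and passed (adjusted p = 0.00259). Leaving out any 1 of the other 5 libraries gave values of -0.73 to -0.57 and adjusted p of 0.0678 to 0.213. CD274 was called lower with no filter on low counts (adjusted p = 0.00227) and with scaling by library size alone (adjusted p = 0.0453). Against the DMSO mean, EZA replicates 1, 2 and 3 differed by -0.39, -0.41 and -1.13 on the log2 scale. HLA-C differed by 0.38, 0.47 and 0.81. Opposite directions of the 2 genes in each EZA library follow from groups that do not overlap and add nothing to that. For protein-coding genes of over 60% GC, the range of HLA-C, the medians in EZA replicates 1 to 3 were 0.36, 0.35 and 0.60. For genes of 40% to 45%, the range of CD274, they were -0.17, -0.16 and -0.22.

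GC content moved with the fold changes. Among protein-coding genes whose longest transcript had a GC content of at most 40%, the median log2 fold change was -0.30 (2073 genes). Above 60% it was 0.44 (1638 genes), and 30.8% of those genes were called higher and 0.977% lower. HLA-C, at 62.7% GC, lay 0.56 against that median of 0.44. TAP1, at 57.2%, lay 0.42 against a median of 0.21 for genes of 55% to 60%, of which 18.3% were called higher. HLA-B, at 52.0%, lay 0.28 against 0.10, and CD274, at 40.7%, lay at -0.61 against -0.19 for genes of 40% to 45%, of which 12.9% were called lower. NLRC5, at 58.0%, lay at -0.02, below the median of its range. B2M, at 38.9%, lay at -0.11 and above the median of its range. PSMB9, at 46.9%, and TAP2, at 47.2%, lay at 0.213 and 0.07, above the median of -0.06 for genes of 45% to 50%. TAPBP, at 57.0%, lay at 0.19, just below the median of its range. HLA-C, TAP1 and HLA-B lay inside the quartiles of their ranges, with upper quartiles of 0.74, 0.50 and 0.35. CD274 lay below the lower quartile of its range, -0.43, and PSMB9 just above the upper quartile of its range, 0.207. The part of GC content in these differences was not tested beyond removal of the trend.

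**Figure D2:**
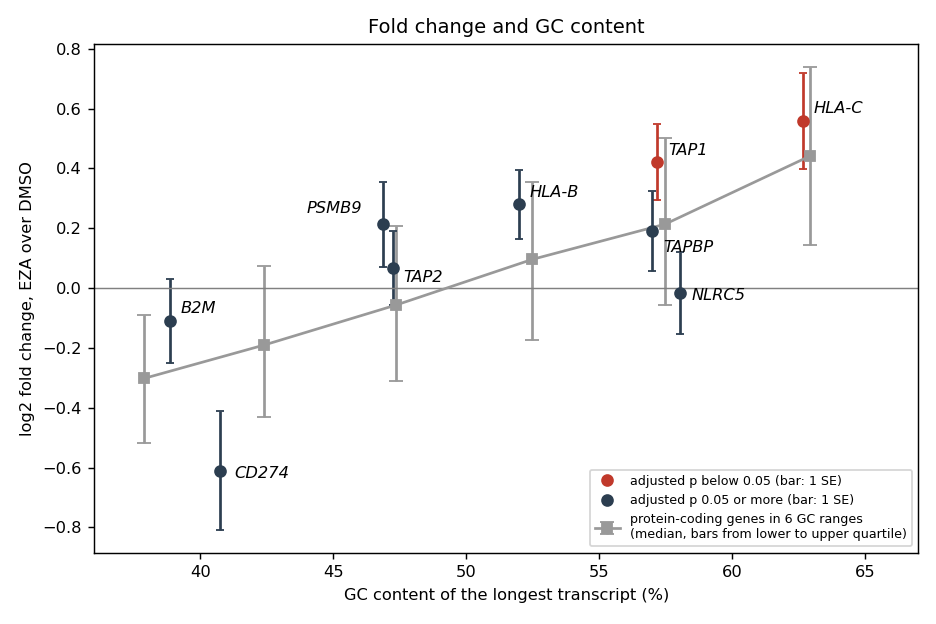
The horizontal axis is the GC content of the longest transcript in percent and the vertical axis the log2 fold change, EZA over DMSO. Named points are the 9 genes with 1 SE (red where the adjusted p was below 0.05). Grey squares are medians of protein-coding genes in 6 GC ranges, placed at the median GC content of each range. Their bars run from the lower to the upper quartile, and the medians climb from -0.30 to 0.44. HLA-C, TAP1, HLA-B, PSMB9, TAP2 and B2M lie above the line, and CD274, NLRC5 and TAPBP below it.

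When the dependence of counts on GC content and transcript length was removed in each library, none of the 9 genes was called (edgeR, adjusted p below 0.05; 6.72% of all genes higher, 4.99% lower). In that setting HLA-C was at a log2 fold change of 0.12 (adjusted p = 0.522), TAP1 at 0.18 (adjusted p = 0.215), HLA-B at 0.20 (adjusted p = 0.178) and CD274 at -0.39 (adjusted p = 0.192). With EZA replicate 3 left out as well, 4 genes were called, 3 higher and 1 lower, where 20.4% of all genes were higher and 18.2% lower. These were HLA-B at 0.19 (adjusted p = 0.0464), TAP1 at 0.19 (adjusted p = 0.0367), B2M at 0.18 (adjusted p = 0.0329) and CD274 at -0.19 (adjusted p = 0.0171). HLA-C was at 0.03 (adjusted p = 0.766). TAP1, HLA-B and CD274 kept their direction in all 15 alternatives, with ranges of 0.18 to 0.49, 0.19 to 0.31 and -0.73 to -0.19. HLA-C also kept its direction, over the widest relative range, 0.03 to 0.65. So did PSMB9 (0.14 to 0.30) and TAP2 (0.02 to 0.18), neither of which was called in any setting. When EZA replicate 3 alone was left out, HLA-B, HLA-C and TAP1 were called higher and CD274 lower, where 19.1% of all genes were called higher and 19.2% lower.

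**Figure D3:**
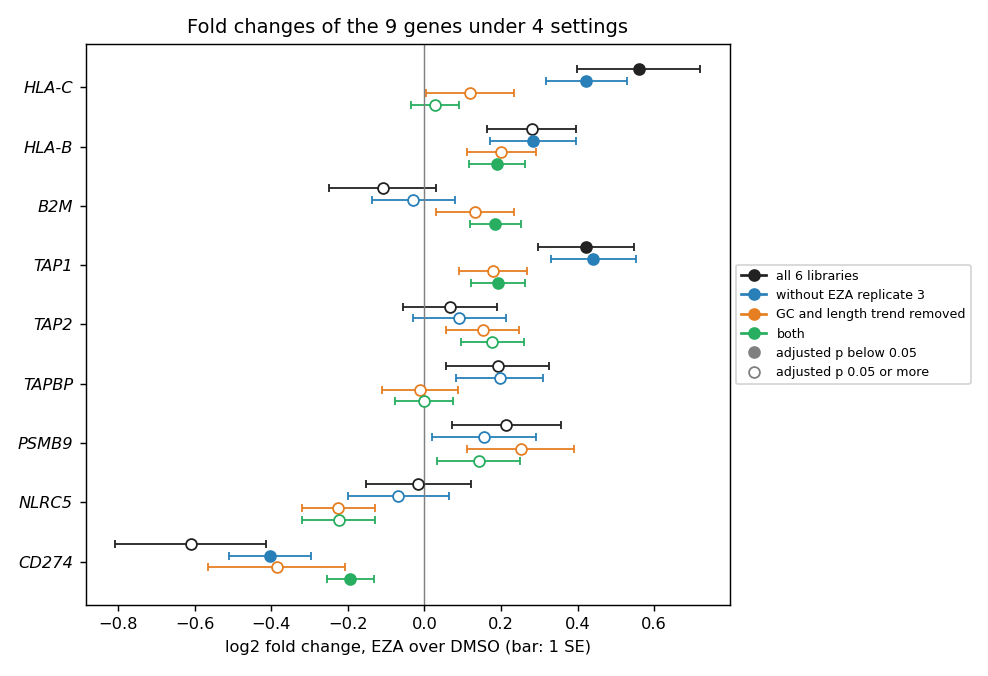
Rows are the 9 genes and the horizontal axis is the log2 fold change, EZA over DMSO, with 1 SE, under 4 settings shown in colour; filled points have an adjusted p below 0.05. HLA-C lies at 0.56 with all 6 libraries and at 0.03 with the trend removed and EZA replicate 3 left out. TAP1, HLA-B, PSMB9 and TAP2 stay above 0 and CD274 below 0 in each setting.

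Ratios of 2 genes within 1 library do not depend on library scaling, but they do move with GC content where the 2 genes differ in it. They were computed for 8 pairs chosen after the values were seen. The smallest two-sided exact permutation p that 3 against 3 libraries allow is 0.1. Ratios at this p had an adjusted p of 0.16 over the 8. HLA-C counts per B2M count were 1.98, 1.77 and 2.89 in EZA, against 1.14, 1.56 and 1.42 in DMSO (exact p = 0.1). HLA-B counts per B2M count were 0.197, 0.180 and 0.222 in EZA, against 0.135, 0.161 and 0.159 in DMSO (exact p = 0.1). Both ratios were higher in every EZA library than in any DMSO library. After removal of the GC and length trend, the log2 fold change of HLA-C less that of B2M was -0.0128, against 0.67 before removal, and that of HLA-B less that of B2M was 0.0682, against 0.39. TAP1 counts per TAP2 count were 2.45, 2.87 and 2.67 in EZA, against 1.89, 2.27 and 2.07 in DMSO (exact p = 0.1). CD274 counts per HLA-C count were 0.351, 0.325 and 0.156 in EZA, against 0.708, 0.504 and 0.605 in DMSO (exact p = 0.1). Each of these ratios separated the groups as deposited, in pairs picked for their values. Once the trend was removed, the difference in log2 fold change was 0.0279 for TAP1 less TAP2, against 0.35 before removal, and -0.51 for CD274 less HLA-C, against -1.17. TAP1 per PSMB9, the pair with neighbouring starts, was 4.87, 4.41 and 3.93 in EZA, against 3.36, 3.84 and 4.18 in DMSO, and the groups overlapped (exact p = 0.2). HLA-C per HLA-B was 10.1, 9.84 and 13.0 in EZA, against 8.47, 9.71 and 8.93 in DMSO (exact p = 0.1). The log2 fold change of HLA-C less that of HLA-B was 0.28 before removal of the trend. It was -0.0810 after removal, and -0.16 with EZA replicate 3 also left out. PSMB9 per PSMB6 was 0.117, 0.125 and 0.243 in EZA, against 0.132, 0.135 and 0.120 in DMSO (exact p = 0.9), with EZA replicate 3 alone far from the rest.

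**Figure D4:**
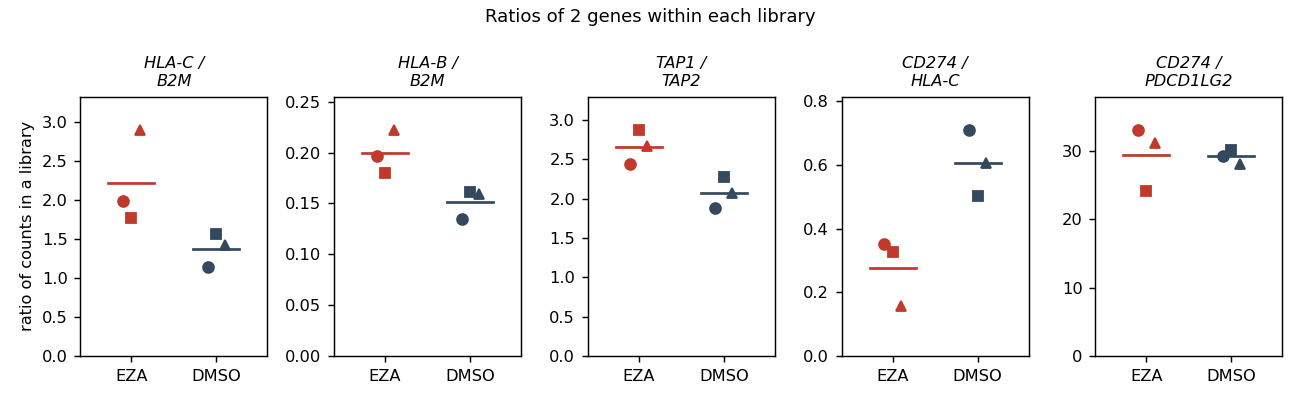
Each panel gives the ratio of the counts of 2 genes in each of the 6 libraries, with EZA left of DMSO, lines at the means and axes that start at 0. The groups are apart for HLA-C and HLA-B over B2M, for TAP1 over TAP2 and for CD274 over HLA-C, and lie over each other for CD274 over PDCD1LG2.

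Levels per transcript length give the order of abundance among the genes, as counted. How reads shared between HLA genes were handled is not given, so the levels of HLA-C and HLA-B carry that limit. In the deposited FPKM, fragment counts scaled for gene length and library total, HLA-C led with 324 ± 50.3 in EZA and 218 ± 22.0 in DMSO (SD, n = 3 each). CD274 at 52.7 ± 14.3 in EZA and 79.6 ± 5.57 in DMSO and B2M at 61.6 ± 9.02 in EZA and 65.7 ± 4.21 in DMSO came next, with B2M above CD274 in EZA, within their spread, and CD274 above B2M in DMSO. HLA-B was at 24.2 ± 1.34 FPKM in EZA and 19.8 ± 0.725 FPKM in DMSO. TAPBP at 21.0 ± 1.72 FPKM in EZA and 18.3 ± 2.13 in DMSO and TAP1 at 20.6 ± 1.09 in EZA and 15.2 ± 1.59 in DMSO followed, within their spread of each other in EZA. PSMB9 was at 7.36 ± 0.809 FPKM in EZA and 6.29 ± 0.420 in DMSO. TAP2 was at 5.83 ± 0.295 FPKM in EZA and 5.51 ± 0.179 in DMSO, and NLRC5 was lowest with 1.98 ± 0.150 in EZA and 1.98 ± 0.146 in DMSO. The authors' FPKM rest on 1 length per gene, which they do not give. For B2M the length implied by its counts and FPKM is 6079 bases, against 3121 exon bases in GENCODE 44. With the GENCODE length B2M would be at 120 ± 17.6 FPKM in EZA and 128 ± 8.20 FPKM in DMSO, above CD274 in both groups. HLA-B, TAPBP and TAP1 also change places with the GENCODE lengths: TAP1 would be at 20.9 ± 1.10 FPKM in EZA and 15.4 ± 1.61 in DMSO, HLA-B at 16.0 ± 0.881 in EZA and 13.1 ± 0.479 in DMSO, and TAPBP at 16.0 ± 1.31 in EZA and 13.9 ± 1.62 in DMSO. The GENCODE length of HLA-B includes the 1421 bases that overlap DHFRP2. The order of these 3 genes thus rests on the gene length used.

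Profiles most like those of HLA-B and CD274 were found by the root mean square difference of the 6 log2 values, centred on the DMSO mean, among 10391 genes with at least 5 CPM on average. Nearest to HLA-B were MAPKAPK2, a kinase downstream of p38 (difference 0.0189), DLG3, a scaffold protein (0.0221), and COX14, an assembly factor of cytochrome c oxidase (0.0224). Nearest to CD274 were RABL3, a small GTPase-like protein (0.0217), HACD2, an enzyme of fatty acid elongation (0.0297), and RYBP, a Polycomb protein (0.0373). Like CD274, RABL3 had a log2 difference of -0.62 that missed the threshold (edgeR, adjusted p = 0.0659). Nothing beyond the 6 values was compared.

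Calls among other genes of peptide supply are to be read beside those over all genes, 9.89% higher and 7.82% lower. None of the 5 other immunoproteasome genes tested was called (edgeR; 0 higher and 1 lower at an unadjusted p below 0.05, the lower one being POMP), with a median log2 fold change of 0.11. PSMB5, PSMB6 and PSMB7, the constitutive catalytic subunits, had log2 differences of 0.25, 0.02 and -0.08 and none was called. In that list of 5, 1 gene fell: PSME4, the proteasome activator PA200, averaged 158 ± 2.81 CPM in EZA and 227 ± 9.35 CPM in DMSO (SD, n = 3 each; log2 fold change -0.52, adjusted p = 0.0174). Its call was lost without DMSO replicate 1, 2 or 3 (adjusted p = 0.095, 0.0565 and 0.113) and after removal of the GC and length trend (0.055). Of 6 peptide loading and trimming genes, 1 fell and none rose, with a median of -0.23. The one that fell was ERAP2, an aminopeptidase that trims peptides in the endoplasmic reticulum, with 31.0 ± 3.98 CPM in EZA and 49.0 ± 4.75 CPM in DMSO (log2 fold change -0.66, adjusted p = 0.0219). Its call was likewise lost without DMSO replicate 1, 2 or 3 (adjusted p = 0.115, 0.0544 and 0.106) and with the trend removed (0.0788). Without EZA replicate 3, 4 of the 6 loading genes were lower, and in the immunoproteasome list 1 was higher and 1 lower. In that setting 19.1% of all genes were called higher and 19.2% lower.

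Among class I-like chains, HLA-E, which presents leader peptides of other class I chains to NKG2A on natural killer cells, had 204, 237 and 299 CPM in EZA, against 127, 150 and 134 CPM in DMSO. The groups did not overlap, and EZA replicate 3 was again the highest. HLA-E rose by 0.85 ± 0.16 on the log2 scale (SE; edgeR, adjusted p = 0.0126), and by 0.67 with the GC and length trend removed (adjusted p = 0.0340). Its call was lost without DMSO replicate 1 or 3 (adjusted p = 0.0856 and 0.0749). It was also lost with the trend removed and the replicate number added as a block. It was the 1 gene called of 4 tested, of 6 listed, where 9.89% of all genes rose and 7.82% fell. The median of the 4 was 0.34, against 0.19 for the 9 genes. HLA-F was at 0.41 (adjusted p = 0.0893). Without EZA replicate 3 the list held 3 genes called higher, where 19.1% of all genes were called higher. No class II gene had enough counts to be tested. Of 9 listed, HLA-DRA, HLA-DRB1, HLA-DPA1, HLA-DQA1 and HLA-DQB1 had no counts in any library.

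Of 9 factors tested in the list of enhanceosome factors, which bind class I or class II promoters, 1 rose and 1 fell, with a median of -0.24; over all genes, 17.7% were called. With the GC and length trend removed none of the 9 was called. RFXANK, a subunit of the RFX complex, rose to 61.6 ± 9.20 CPM in EZA, against 34.4 ± 4.88 CPM in DMSO (SD, n = 3 each; log2 fold change 0.84, edgeR, adjusted p = 0.0133). CREB1, which binds the cyclic AMP response element, fell to 24.2 ± 2.89 CPM in EZA, against 35.3 ± 2.22 CPM in DMSO (log2 fold change -0.54, adjusted p = 0.0329). In that setting RFXANK was at 0.48 (adjusted p = 0.0513). The CREB1 value was -0.12 there and 0.0049 with EZA replicate 3 also left out. RFXANK lost its call without DMSO replicate 1 or 3 (adjusted p = 0.0856 and 0.0772). CREB1 lost its call without EZA replicate 2 (adjusted p = 0.0821) and without DMSO replicate 1, 2 or 3 (0.129, 0.076 and 0.163). RFX5, another RFX subunit, was at 0.05, and the CCAAT-binding subunits NFYA, NFYB and NFYC were at -0.53, 0.01 and -0.24, none called. NFYC had a log2 value of 0.12 without EZA replicate 3. RFXANK overlaps genes on the opposite strand, so its counts are uncertain.

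Of 17 interferon signalling genes tested, 3 rose and 2 fell, where 9.89% of all genes rose and 7.82% fell, with a median of -0.09. IRF7 and IRF3, factors that drive interferon genes, rose by log2 fold changes of 0.95 (edgeR, adjusted p = 0.0127) and 0.60 (adjusted p = 0.0305). TYK2, a receptor-associated kinase named after its value was seen, rose by 0.46 (adjusted p = 0.0388). JAK2, a kinase of the interferon gamma receptor, fell to 5.87 ± 1.71 CPM in EZA, against 11.8 ± 1.29 CPM in DMSO (SD, n = 3 each; log2 fold change -1.01, adjusted p = 0.0209). IRF2, which binds the same element as IRF1, fell by 0.65 on the log2 scale (adjusted p = 0.0226). IRF1, the activator of class I and CD274 promoters, was at -0.54 (adjusted p = 0.0823) and was not called. Of these 5 calls, none remained without DMSO replicate 1 or 3, 1 remained without DMSO replicate 2 or EZA replicate 2, and 4 genes of the list were called without EZA replicate 1. In these settings, 1.6% to 11.4% of all genes were called. Without EZA replicate 3, 4 genes of the list were higher and 2 lower, where 19.1% of all genes were higher and 19.2% lower. After removal of the GC and length trend, the calls of IRF7, IRF3, TYK2 and JAK2 were lost (log2 values of 0.38, 0.30, 0.15 and -0.65). That of IRF2 was kept there (adjusted p = 0.0258) and lost with the replicate block added to the trend removal. Exons of IRF3 overlap BCL2L12 on the opposite strand.

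Of 34 interferon-induced genes, 21 could be tested, 1 rose and 2 fell, where 9.89% of all genes rose and 7.82% fell. The median of the 21 was -0.04. The one that rose was IFI35, with 25.3 ± 1.89 CPM in EZA and 14.2 ± 0.392 CPM in DMSO (SD, n = 3 each; log2 fold change 0.83, edgeR, adjusted p = 0.00756). SAMD9 fell by 0.68 and DTX3L by 0.57 on the log2 scale (adjusted p = 0.0309 and 0.0314). CXCL9, CXCL10, CXCL11 and IDO1, strongly induced by interferon gamma, had no counts in any library. No gene of the list was called without DMSO replicate 1 or 3, 1 was called without DMSO replicate 2, 2 without EZA replicate 1 or 2, and 9 without EZA replicate 3, 3 higher and 6 lower, beside shares of all genes that ran from 1.6% without DMSO replicate 1 to 38.4% without EZA replicate 3. The calls of SAMD9 and DTX3L were lost with the GC and length trend removed (adjusted p = 0.212 and 0.0679). That of IFI35 was kept there (0.0216) and lost with the replicate block added to the trend removal. In the NF-kappaB list, 12 genes were tested, none rose and 1 fell. That gene, BIRC3, an inhibitor of apoptosis induced by NF-kappaB, fell to 4.54 ± 0.249 CPM in EZA, against 12.6 ± 0.997 CPM in DMSO (log2 fold change -1.48, adjusted p = 0.0018). BIRC3 was called in all 15 alternatives. The median of that list was -0.17. Without EZA replicate 3, 4 of its genes were higher and 3 lower, where 19.1% of all genes were higher and 19.2% lower. Without EZA replicate 2, 1 was higher and 1 lower, where 10.6% of all genes were called in either direction.

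Of 9 genes tested that act on PD-L1 protein, 3 rose and none fell, where 9.89% of all genes rose and 7.82% fell. The median of the 9 was 0.21, with values from -0.25 to 0.83. The genes were not sorted by whether they raise or lower PD-L1 protein, which was not measured here. CMTM4, also of the list, was at 0.51 with EZA above DMSO in all libraries, and was not called (edgeR, adjusted p = 0.104). STUB1, a ubiquitin ligase that marks PD-L1 for degradation, had 97.5, 106 and 155 CPM in EZA, against 54.7, 80.2 and 67.5 CPM in DMSO. HIP1R, which sends PD-L1 to lysosomes, had 90.0, 85.5 and 135 CPM in EZA, against 59.6, 64.2 and 62.4 CPM in DMSO. EZA replicate 3 was the highest library for both, and neither gene's groups overlapped. The log2 fold changes were 0.83 for STUB1 (edgeR, adjusted p = 0.0302) and 0.74 for HIP1R (adjusted p = 0.0287). Without DMSO replicate 1, 2 or 3 the calls of STUB1 (adjusted p = 0.142, 0.06 and 0.12) and HIP1R (adjusted p = 0.137, 0.0843 and 0.116) were lost. In the list, 3 genes were higher and 2 lower without EZA replicate 3, where 19.1% of all genes were higher and 19.2% lower. Both calls were also lost with the GC and length trend removed, where STUB1 was at 0.31 (adjusted p = 0.173) and HIP1R at 0.34 (adjusted p = 0.152). STUB1 shares exon bases with JMJD8 on the opposite strand.

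PDCD1LG2, the gene of the second PD-1 ligand and a neighbour of CD274 on chromosome 9, had 7.68, 10.4 and 4.88 CPM in EZA, against 12.1, 10.2 and 12.1 CPM in DMSO. Its groups overlapped through EZA replicate 2, and EZA replicate 3 was the lowest, as for CD274. The log2 difference was -0.58 ± 0.26 (SE; edgeR, adjusted p = 0.147). CD274 counts per PDCD1LG2 count were 33.0, 24.1 and 31.1 in EZA, against 29.3, 30.2 and 28.0 in DMSO (exact permutation p = 1). Of the 10 other immune ligands and receptors tested, 2 rose and none fell, where 9.89% of all genes rose and 7.82% fell. The median of the 10 was 0.18. TNFSF9, the ligand of 4-1BB, rose by 0.68 (adjusted p = 0.0169), and TNFRSF14, the receptor HVEM, by 0.76 (adjusted p = 0.0190). Without DMSO replicate 1 or 3 both calls were lost (adjusted p = 0.0968 and 0.109 for TNFSF9, 0.108 and 0.106 for TNFRSF14). With the GC and length trend removed TNFRSF14 lost its call (adjusted p = 0.125) and TNFSF9 kept it (0.0463). TNFSF9 lost it with the replicate block added to the trend removal. In the list, 4 genes were higher without EZA replicate 3, where 19.1% of all genes were higher.

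ULBP1, a ligand of the activating receptor NKG2D on natural killer and T cells, had the largest rise of any listed gene. It had 12.1, 11.2 and 3.46 CPM in EZA, against 2.44, 1.98 and 2.30 CPM in DMSO. EZA replicate 3 lay far closer to DMSO than the other EZA libraries did, though the groups did not overlap. ULBP1 rose by 2.00 ± 0.43 on the log2 scale (SE; edgeR, adjusted p = 0.0181), and by 2.37 without EZA replicate 3. The call was lost without DMSO replicate 1, 2 or 3 (adjusted p = 0.0947, 0.0746 and 0.0798). It was the 1 gene called of 5 NKG2D ligands tested, of 8 listed, where 9.89% of all genes rose and 7.82% fell. The median of the 5 was -0.02. ULBP1 also passed the study's threshold, as did JAK2, BIRC3 and IFIT1 among the listed genes, each lower in EZA. IFIT1, of the interferon-induced list, was at -1.81 and was not called (edgeR, adjusted p = 0.0519). It had few counts, 18 in EZA and 64 in DMSO. Without EZA replicate 3, 2 of the 5 were higher, where 19.1% of all genes were higher.

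**Figure D5:**
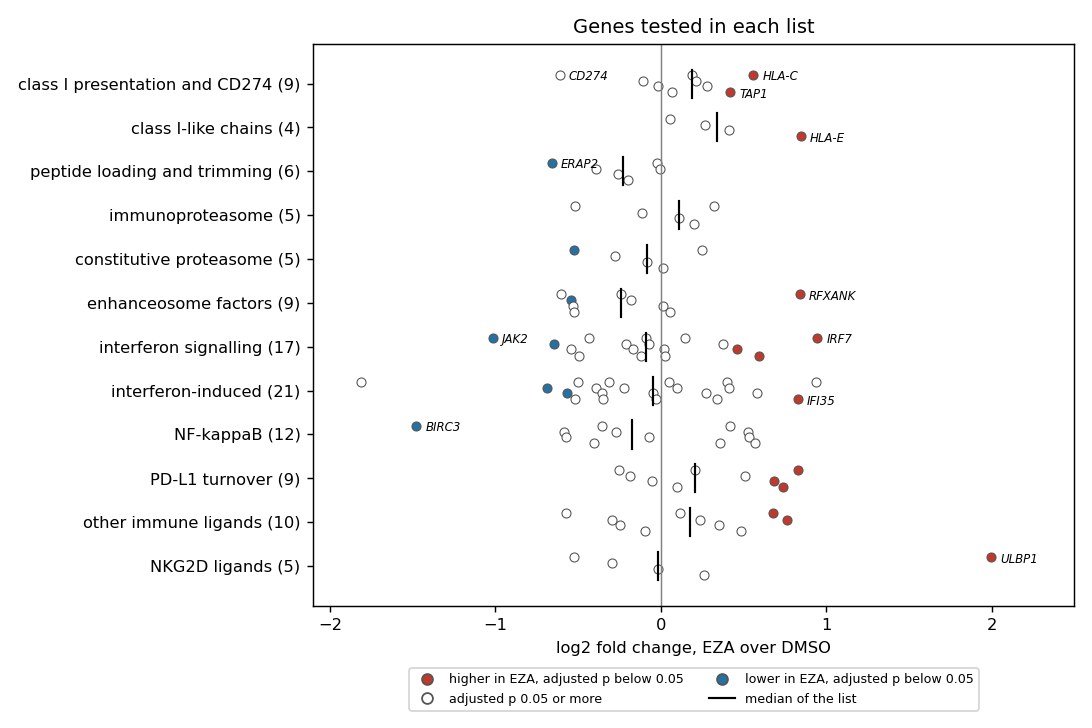
Each point is a gene tested, in rows by list with the number tested in brackets, at its log2 fold change, EZA over DMSO; red points were called higher and blue points lower at an adjusted p below 0.05, and black bars are medians. List medians lie between -0.24 and 0.34, and ULBP1 at 2.00 and BIRC3 at -1.48 are the called genes farthest from 0.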

How the data were processed

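Polyadenylated RNA of 3 EZA and 3 DMSO samples of RKO cells was made into unstranded libraries, per the labels. The submitters' processing notes list HISAT2, featureCounts, FastQC and DESeq2 as tools, and GRCh38 (hg38) as build. Tool versions and the gene annotation behind the counts are not stated there. The authors deposited raw counts for each gene and FPKM values, which equal counts over 1 length per gene and 1 total per library. All tests used the counts, and FPKM served only to compare levels between genes.

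The 58735 rows held no repeated identifier, 58207 were found in GENCODE 44, and 0 value columns were left unassigned. Groups came from the sample titles. After filterByExpr and TMM scaling, all 6 libraries entered edgeR's robust quasi-likelihood test (two-sided, no covariates), with Benjamini-Hochberg adjustment over 13503 genes and a threshold of 0.05. Standard errors are the log2 fold change over the root of F. CPM rest on tested genes after TMM scaling. Replicates differed by more than counting noise. The biological coefficient of variation was 18.4%.

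The 9 genes, the other lists, the markers and the motifs were chosen with earlier results of these data known. All 9 genes were named. From each other list, up to 4 called genes with the smallest adjusted p and 1 called in the other direction were named, as were PSMB5, PSMB6, PSMB7, NFYA, NFYB, NFYC, RFX5 and IRF1, and the 3 genes most like HLA-B and CD274. TYK2, HLA-F, POMP, PDCD1LG2, IFIT1 and CMTM4 were added to the names once their values were known. Some genes that this rule names are not reported here. Lists are described by counts and medians, with no set test.

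Alternatives were DESeq2 size factors, library size alone, no filter on low counts, limma-voom, DESeq2's own test, a block for the replicate number, a lowess correction of counts for GC content and length (span 0.3), and each library left out in turn. Counts of called genes per list under left-out libraries and the ratios within libraries, with and without the trend, were added after seeing the data. Replicate numbers were not taken as pairs. The check behind this, with 3 libraries per group, cannot exclude pairing. The edgeR test, with and without removal of the trend, was run on simulated data first. The simulated libraries held none that stood apart as EZA replicate 3 does. The other alternatives and the permutation test on ratios were not run on simulated data. Promoter sequences are from RefSeq (GRCh38.p14). Versions were edgeR 4.0.16, DESeq2 1.42.0 and limma 3.58.1 in R 4.3.3, and Python 3.11.15, scipy 1.17.1 and Biopython 1.88.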

Additional observations from a re-analysis of the deposited data

How the results depend on the processing

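The main test called 2392 genes, of which 2 were among the 9. With the GC and length trend removed these numbers were 1581 and 0, with the trend removed and the replicate number as a block 645 and 0, and with the trend removed and EZA replicate 3 left out 5328 and 4. Scaling by library size alone called 1 of the 9 (CD274, lower) and split all calls into 1059 higher and 1270 lower. The replicate block also called 1 of the 9 (CD274, lower, adjusted p = 0.0420); same-numbered libraries correlated at 0.03, -0.17 and 0.03 in their deviations, so the numbers were not taken as pairs. With each library left out in turn, 220 to 5289 genes and 0 to 4 of the 9 were called; 4 was reached without EZA replicate 3 and 0 without each of the other 5. No alternative put any of the 9 past the study's threshold.

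Log2 values changed sign in these cases. B2M was at 0.13 with the trend removed, 0.13 with the block added and 0.18 with EZA replicate 3 left out, and TAPBP at -0.0113, -0.0125 and -0.0021. CREB1 was at 0.0049 in the last of these. PSMB7 was at 0.0849 with the trend removed and EZA replicate 3 left out. With library size alone PSMB6 and NFYB were at -0.0381 and -0.0306. With limma-voom PSMB6 was at -0.0344 and NFYB at -0.0120, and with the replicate block at -0.0319 and -0.0042. PSMB6 was at -0.14 with the trend removed and -0.17 with the block added. With libraries left out in turn, the ranges were -0.0686 to 0.0543 for NLRC5, -0.16 to 0.24 for PSMB6, -0.29 to 0.17 for PSMB7, -0.17 to 0.12 for NFYB and -0.56 to 0.12 for NFYC. The causes were not tested.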
